A study of Drosophila melanogaster with 5 samples.

Results

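Chromatin accessibility was described at 4 genes of 1 pathway, tramtrack (ttk), phyllopod (phyl), sina and ebi, in 5 populations of sorted cells of the Drosophila midgut. A peak was assigned to a gene when it overlapped the gene body with 5 kb to each side by at least 1 bp, in coordinates of the BDGP6 genome. This rule used positions alone, and it found 63 of the 40142 peaks of the 5 lists. Of these, 16 came from enterocytes (ECs), 7 from Ttk-depleted ECs, 15 from enteroendocrine cells (EEs), 12 from Pros-depleted EEs and 13 from esg+ progenitor cells. Touching or overlapping peaks of the 5 lists were merged into regions, numbered along the chromosome within each gene, and the 4 genes held 25 of all 15196 regions. There were 37 peaks in 13 regions at ttk, 6 in 5 at phyl, 6 in 3 at sina and 14 in 4 at ebi.

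Each population was represented by 1 library, so no test between populations was possible and every difference below has no replicate check. Progenitor cells carried esg-Gal4ts, UAS-GFP, EEs prosV1-Gal4ts, UAS-GFP and ECs Myo1A-Gal4ts, UAS-GFP. Pros-depleted EEs had in addition UAS-pros-RNAi, and Ttk-depleted ECs combined Myo1A-Gal4ts, UAS-GFP and UAS-ttk-RNAi with pros-mCherry. The ts mark stands for a temperature-sensitive GAL80, present in all 5 populations, which keeps the GAL4 driver off until the flies are warmed. All cells came from adult females, 5 to 7 days old when moved from 18 to 29 °C for 7 days, with 100 to 150 guts pooled and about 40000 cells sorted per sample. Sorting took GFP+ cells, except that the Ttk-depleted cells were weak for GFP and positive for Pros-mCherry, so this library holds depleted cells positive for Pros. The Myo1A driver is also active in some enteroblasts, and the RNAi line used for the ATAC-seq sample is not given in the sources used here. Names inside the lists mark the progenitor library with "5w" and 3 others with a replicate number, and these marks are not explained.

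Tramtrack is a zinc-finger repressor with a BTB domain. Alternative splicing joins a shared first part of the protein to different zinc fingers, giving the shorter Ttk69 and the longer Ttk88. In the developing eye of Drosophila, Ttk protein is removed by ubiquitination: Phyllopod is the adaptor that binds Ttk, Sina is the RING-finger ubiquitin ligase, and Ebi is a WD-repeat protein of the F-box-like kind that promotes the same degradation downstream of the EGF receptor. In sensory organ precursors and in the midgut, loss of Ttk releases the neural and endocrine programs that it represses, the latter including the EE regulators scute and prospero.

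Several sequences from the RefSeq Release 6 genome show where the accessible summits lay. All are on the plus strand, which is the coding strand of ttk, sina and ebi, and capitals mark motif matches on either strand. The first is the 101 bp around the summit that progenitor cells, EEs and ECs shared exactly at the first ttk promoter (chr3R:31713628-31713728). The next is the intronic region ttk 6 around its Pros-depleted EE summit (chr3R:31719077-31719177), which had no EE peak. It is followed by the intronic region ttk 9 around its progenitor summit (chr3R:31723772-31723872), and by the pair of summits of region ttk 10 at the downstream promoters (chr3R:31724865-31724965 in ECs and chr3R:31725634-31725734 in progenitor cells). The last pair are the 95 bp between the edge of the sina peak and the sina start site (chr3L:16853656-16853750), and the whole 289 bp that separate ebi from its divergent neighbour AP-2alpha (chr2L:414778-415066).
ttk 1 summit: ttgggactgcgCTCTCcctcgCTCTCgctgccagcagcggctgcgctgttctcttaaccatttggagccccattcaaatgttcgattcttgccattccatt
ttk 6 summit: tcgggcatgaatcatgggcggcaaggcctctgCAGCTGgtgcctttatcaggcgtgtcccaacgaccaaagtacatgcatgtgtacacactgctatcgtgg
ttk 9 summit: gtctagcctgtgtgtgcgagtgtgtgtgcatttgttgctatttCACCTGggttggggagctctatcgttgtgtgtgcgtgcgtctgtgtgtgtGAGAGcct
ttk 10 first summit: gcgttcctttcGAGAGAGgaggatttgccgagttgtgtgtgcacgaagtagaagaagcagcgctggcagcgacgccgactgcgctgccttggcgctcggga
ttk 10 second summit: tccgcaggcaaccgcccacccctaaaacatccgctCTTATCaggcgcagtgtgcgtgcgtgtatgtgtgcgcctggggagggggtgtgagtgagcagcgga
sina promoter: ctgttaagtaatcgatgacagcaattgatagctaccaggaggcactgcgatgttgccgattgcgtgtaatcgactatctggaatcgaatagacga
ebi and AP-2alpha promoter: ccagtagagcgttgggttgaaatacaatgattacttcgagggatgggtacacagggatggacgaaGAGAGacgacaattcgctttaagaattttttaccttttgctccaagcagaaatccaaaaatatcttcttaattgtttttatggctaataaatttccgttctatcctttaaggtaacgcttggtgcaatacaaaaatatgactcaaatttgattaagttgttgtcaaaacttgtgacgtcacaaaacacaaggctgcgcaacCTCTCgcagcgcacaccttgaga

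In these letters both ttk promoter regions and the ebi promoter held the GAGAG of the GAGA factor, which Trl encodes. The first ttk summit had 2 such matches, the first summit of region ttk 10 had 2 that overlap each other, and the ebi interval had 2, one 23 bp before the ebi start site. Regions ttk 6 and ttk 9, both intronic, held an E-box, CAGCTG at 18 bp and CAGGTG (read as CACCTG) at 7 bp before the summit, and ttk 9 also 1 GAGAG. E-boxes are the class of sites bound by basic helix-loop-helix proteins such as Scute. Over the 101 bp around the strongest summit of each region, GAGAG was present at 6 of the 25 regions of the 4 genes and in 18.4% of all 15196 regions. CAGCTG was present at 2 of the 25 and in 7.65% of all, and CAGGTG at 3 of the 25, ttk 9, phyl 2 and phyl 3, and in 5.06% of all. GATAAG of GATA factors had no match at these 25 summits, against 10.5% of all regions, although the second summit of ttk 10, which is not the strongest of its region, held 1. Matches were also counted for the Ttk69 site GGTCCTGC (0 of 25, 0.112% of all), for CGTGGGAA, CGTGAGAA, TGTGGGAA and TGTGAGAA of Su(H) (0 of 25, 1.03% of all), for TATCGATA, the DNA replication-related element (1 of 25, at ebi 4, 1.94% of all), and for CCGGAA of ETS factors (0 of 25, 3.16% of all). No match was found in the sina promoter. Among 289 bp windows upstream of all protein-coding start sites, 31.7% held GAGAG. A match is a description of the letters and not evidence of a bound factor.

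Values below are percentile ranks: the fold enrichment that the authors' peak caller gave each peak was ranked within its own list, so 100 is the strongest peak of that library. Ranks were used because fold enrichment depends on depth, which differed. The median fold enrichment was 2.68 in ECs, 5.21 in Ttk-depleted ECs, 3.88 in EEs, 3.91 in Pros-depleted EEs and 4.94 in progenitor cells. A like fold enrichment therefore generally ranked higher in ECs than in the other lists. A higher rank is thus not by itself a higher fold enrichment. Fragments at a summit, obtained from the fold enrichment and its p-value under the peak caller's Poisson model, had a median between 52 and 103 in 4 libraries and of 8 in Ttk-depleted ECs. That library had 3269 peaks with a median width of 129 bp, against 8466 to 10048 peaks of 476 to 591 bp in the others. Its percentiles are places in this shorter list, so they are not directly comparable with those of the longer lists. At the ttk gene its summits held 10 to 19 fragments, against 37 to 325 in ECs. For the stronger peaks of the 4 genes, an absence in Ttk-depleted ECs is therefore read below beside the share of peaks of like fold rank with a counterpart in this short list. No such share is given for the pathway genes. The 11 marker genes of the cell types did not all separate the libraries. AstC, a peptide hormone of EEs, had 2 peaks within 5 kb in EEs, 1 in Pros-depleted EEs and none in the other libraries. Tachykinin (Tk) had 3 in EEs, 2 each in progenitor cells and ECs, 1 after Pros depletion and none after Ttk depletion. Others went against their label. The progenitor marker esg ranked higher over its start site in EEs (99.6) and ECs (99.7) than in progenitor cells (90.3). The EC marker Myo31DF had a start-site peak in EEs (87.3) and none in ECs. The EE marker pros was mixed, with 11 peaks in EEs, 7 each in progenitor cells and ECs, 12 after Pros depletion and 4 after Ttk depletion. Over its start site pros ranked lower in EEs (57.2) than in ECs (87.2) or progenitor cells (81.6).

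The ttk gene (FBgn0003870, 3R from 31713867 to 31735392, plus strand) had more peaks than most genes of each list. There were 7 in ECs and 6 in Ttk-depleted ECs, 10 in EEs with 8 after Pros depletion, and 6 in progenitor cells. In the same order, as many or more were found at 1.91%, 0.366%, 0.473%, 0.875% and 2.81% of the 13945 protein-coding genes of the arms. The presence of at least 1 peak was common, at 80.3%, 31.9%, 76.5%, 74.4% and 76.5% of these genes. The window of ttk is long, at 31526 bp. Per 10 kb of window it had 2.22, 1.9, 3.17, 2.54 and 1.9 peaks, and between 79.2% and 98.5% of the genes had a lower density in the respective list. In EEs the 10 peaks were mostly weak, with a median percentile of 12.5, while the 7 of ECs had a median of 54.9. The order of the counts depended on the threshold: with a −log10 q of at least 10 there were 4, 0, 3, 5 and 6 peaks in the order above, and with equal numbers of peaks from each list 3, 6, 2, 2 and 2.

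**Figure D1:**
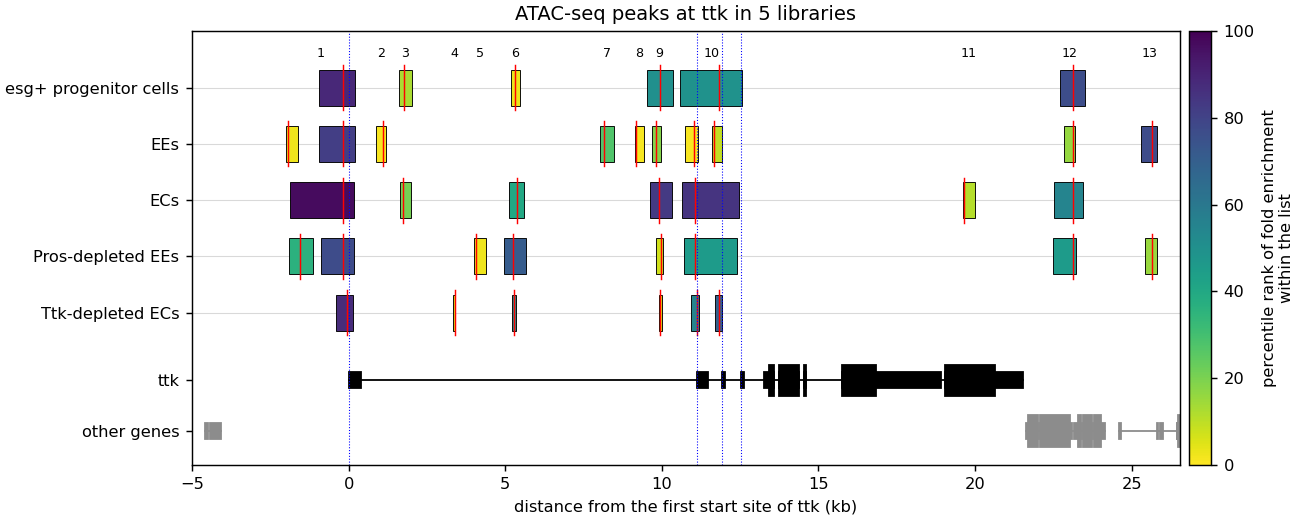
Peaks at ttk in the 5 libraries. The x axis is the distance from the first ttk start site in kb, boxes are peaks coloured by their percentile rank of fold enrichment within the list, red ticks are summits, dotted lines are the 4 start sites, numbers are the merged regions, and thick bars of the gene models are coding exons. Region 1 over the first start site is dark in all 5 libraries, whereas regions 9 and 10 are dark in ECs (percentiles 83.0 and 85.1) and light in EEs (18.5 and 9.22).

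The annotation gives ttk 8 transcripts from 4 start sites, at 31713867, 31724996, 31725780 and 31726402. Each start site serves 1 transcript ending at 31732768 that encodes 643 residues, the length class of Ttk69, and 1 ending at 31735392 that encodes 813 residues, that of Ttk88. The choice of start site is thus separate from the choice of protein, and peaks at the promoters do not tell the isoforms apart. Among all protein-coding genes, 29.2% had a peak over a start site in ECs, 4.80% in the Ttk-depleted library, 38.4% in EEs, 35.8% in the Pros-depleted library and 42.0% in progenitor cells. At ttk every library had one.

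The first ttk promoter, region ttk 1, was the strongest site of the locus in every library. Its peak ranked at percentile 97.1 in ECs and 87.5 in the Ttk-depleted cells, at 81.8 in EEs and 77.0 in the Pros-depleted cells, and at 88.9 in progenitor cells. Among the longer lists the EC rank was the highest and the Pros-depleted EE rank the lowest, and the peak was among the stronger ones of each list. Fold enrichment was 9.88 in progenitor cells and 7.72 in ECs. The summit lay at the same base, 31713678, in progenitor cells, EEs and ECs, 189 bp upstream of the start site, and 1 bp further on in Pros-depleted EEs. In Ttk-depleted ECs it lay at 31713809, 58 bp upstream. The peak spanned 2068 bp in ECs, 546 bp after Ttk depletion, 1148 bp in EEs, 1057 bp after Pros depletion and 1152 bp in progenitor cells. On the upstream flank, EEs and Pros-depleted EEs had a separate, weaker peak, with summits 1927 and 1547 bp upstream and percentiles of 2.65 and 36.0, and both overlapped the wide EC peak.

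The downstream start sites lay in region ttk 10, and here the libraries differed. Its strongest peak ranked at percentile 85.1 in ECs, 69.9 in the Ttk-depleted library, 9.22 in EEs, 45.5 in the Pros-depleted library and 49.5 in progenitor cells. Ranked by −log10 p instead, these peaks stood at 95.9, 87.8, 20.1, 54.3 and 88.0 in the same order, so that progenitor cells lay next to ECs and EEs were still the lowest. The EC rank was thus 75.9 points above the EE rank, a gap reached by 1.11% of the 5473 regions with a peak in both. The Pros-depleted EE rank was 36.3 points above that of EEs, as in 3.80% of the 6719 regions with a peak in these 2 libraries. In fold enrichment, ECs (5.02) and progenitor cells (4.88) were close, Pros-depleted EEs stood at 3.72 and EEs at 2.29. Progenitor cells, ECs and Pros-depleted EEs had 1 wide peak, of 1966, 1804 and 1670 bp, whereas EEs and Ttk-depleted ECs had 2 separate ones. In such bulk samples, fewer cells with the site open and less opening per cell cannot be told apart.

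The 3 downstream start sites were not covered alike. The second start site lay under a peak in all 5 libraries, and the nearest summit was 81 bp away in ECs, 1 bp in the Ttk-depleted library, 116 bp in EEs, 80 bp in the Pros-depleted library and 688 bp in progenitor cells. The third lay under a peak in 4 libraries and just past the end of one in Ttk-depleted ECs, where the summit was 96 bp upstream, at the very base (31725684) of the progenitor summit. The fourth lay under a peak in progenitor cells and in no other library. ECs and Pros-depleted EEs had their summit next to the second start site and progenitor cells next to the third, and the sequences of both summits are shown above.

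Upstream of these promoters, intronic region ttk 9 had a similar order between cell types. It ranked at percentile 83.0 in ECs, 5.20 after Ttk depletion, 18.5 in EEs, 7.39 after Pros depletion and 50.1 in progenitor cells. By −log10 p these ranks were 95.7, 15.0, 31.7, 23.3 and 89.5, with progenitor cells again next to ECs. In rank, ECs were again the highest among the normal cell types and EEs the lowest. They were 64.5 points apart, a gap reached by 2.52% of regions with a peak in both. In fold enrichment, progenitor cells (4.94) and ECs (4.77) were close and EEs (2.58) lower. Unlike region ttk 10, region ttk 9 was low in Pros-depleted EEs. Its summit held 282 fragments in ECs, 11 after Ttk depletion, 65 in EEs, 55 after Pros depletion and 492 in progenitor cells.

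Region ttk 6, in the first intron with summits 5260 to 5364 bp downstream of the first start site, had a peak in 4 libraries and none in EEs. It ranked at percentile 71.1 in the Pros-depleted cells, 50 in the Ttk-depleted cells, 40.2 in ECs and 2.82 in progenitor cells, and by −log10 p at 87.3, 65.4, 58.7 and 19.9. Among the longer lists the Pros-depleted EEs were thus the highest and the progenitor cells the lowest on both scales. Of the 1465 regions with a peak after Pros depletion but none in EEs, 4.71% ranked at least as high in the depleted cells. In the opposite direction, region ttk 13 ranked at percentile 77.3 in EEs and 15.6 after Pros depletion and had no peak in the other 3 libraries. A difference of this size, 61.7 points, was seen at 0.640% of the 6719 regions with a peak in both. Of the 2054 regions with an EE rank at least that of ttk 13, 10.7% had no peak in progenitor cells or ECs. With the EE list split into 10 classes by rank, 32.1% of the class of this peak overlapped a peak of Ttk-depleted ECs. The EE summit of ttk 13 lay 162 bp from a start site of eEF1alpha2, a translation elongation factor gene downstream of ttk, and not at ttk itself.

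The other ttk regions were weaker or lay at the start of a neighbour. Region ttk 3, in the intron, had an EC peak at percentile 20.8 and a progenitor peak at 12.7. Regions ttk 2, ttk 7 and ttk 8 had an intronic peak in EEs and in no other library, at percentiles 0.928, 27.5 and 1.49. Region ttk 4 was found in Ttk-depleted ECs alone, at percentile 4.83, and region ttk 5 in the Pros-depleted library alone, at 2.37. Region ttk 11, in a coding exon present in the longer transcripts, was found in ECs alone, at percentile 11.3. Region ttk 12 lay over the divergent start sites of CstF50, a subunit of the cleavage stimulation factor, and CG11563. It ranked at 54.9 in ECs, 15.8 in EEs, 45.5 after Pros depletion and 76.7 in progenitor cells. Of the 6 ttk peaks of Ttk-depleted ECs, 0 had a summit in a coding exon and 1, at the second start site, had it in a 5′ UTR exon.

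The phyl gene encodes the adaptor of the degradation complex (FBgn0013725, 2R from 14427336 to 14432337, minus strand, with 1 start site at 14432337). It had 2 peaks in progenitor cells, 1 in EEs, 3 in ECs and 0 in both depleted populations. As many or more were found at 53.7%, 76.5% and 26.7% of protein-coding genes in the first 3, so these counts were common. At least 1 peak was present at 74.4% of genes after Pros depletion and at 31.9% after Ttk depletion. No library had a peak over its start site. The strongest region, phyl 3, lay in the single intron, with summits 2148 bp (progenitor cells) and 2140 bp (ECs) downstream of the start site. The progenitor peak ranked at percentile 85.8 and held 123 fragments at its summit, and the EC peak ranked at 78.2 and held 67. No peak was called there in EEs or in either depleted population. Of the 1104 regions ranked at least as high as phyl 3 in both progenitor cells and ECs, 13.7% had no EE peak and 29.6% had none in Ttk-depleted ECs. The share with none in Pros-depleted EEs was not counted.

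ECs had 2 further peaks within phyl, in the coding exon (phyl 1, percentile 33.0) and in the intron (phyl 2, percentile 24.2). The progenitor peak phyl 4, at percentile 8.95, lay upstream, 584 bp from the start of lncRNA:CR45277. The 1 EE peak at the gene, phyl 5 at percentile 55.3, had its summit 1 bp from a start site of the neighbouring gene L and 3563 bp upstream of phyl. EEs thus had no peak whose nearest start site was that of phyl.

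**Figure D2:**
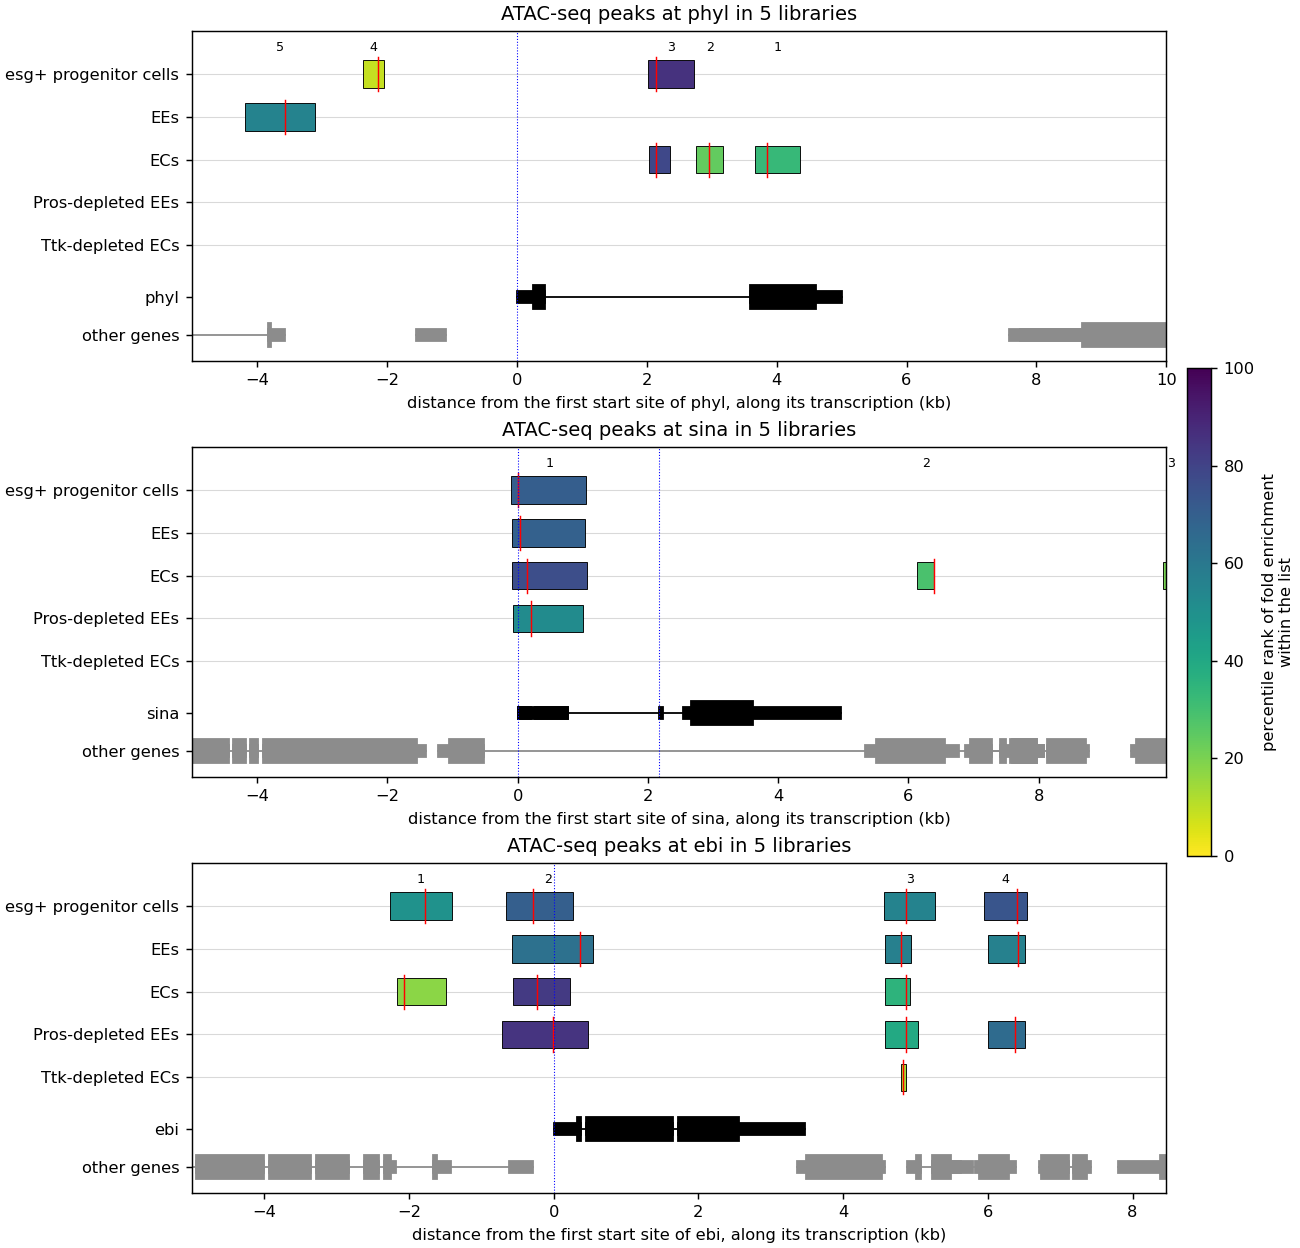
Peaks at phyl, sina and ebi in the 5 libraries, with the same symbols as for ttk; the x axis is the distance in kb from the first start site along the direction of transcription. At phyl no box crosses the dotted start site. A peak covers the first start site of sina and the start site of ebi in the 4 libraries other than Ttk-depleted ECs. No box crosses the other sina start site.

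The sina gene, which encodes the ubiquitin ligase (FBgn0003410, 3L from 16853751 to 16858712, plus strand), lies within the span of Rh4, a rhodopsin gene of the opposite strand. Its promoter was accessible at a like rank in the normal cell types. Region sina 1 covered the first start site and ranked at percentile 76.5 in ECs, 69.4 in EEs, 52.2 after Pros depletion and 70.6 in progenitor cells, with no peak after Ttk depletion. The EC rank was 7.09 points above the EE rank, although fold enrichment was 4.12 in ECs and 5.04 in EEs. The Pros-depleted EE rank was 17.2 points under that of EEs. Widths were close too, between 1061 and 1157 bp. The summit lay downstream of the start site, by 150 bp in ECs, 44 bp in EEs, 206 bp after Pros depletion and 8 bp in progenitor cells. No library had a peak over the second sina start site, at 16855919. The other 2 regions were weak EC peaks downstream, sina 2 within the related gene sinah at percentile 28.7 and sina 3 within CG9951 at 20.7.

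The ebi gene (FBgn0263933, 2L from 415067 to 418536, plus strand, with 1 start site) shares its promoter with AP-2alpha, a subunit of the clathrin adaptor. Region ebi 2 covered both start sites and ranked at percentile 83.0 in ECs, 63.2 in EEs, 84.8 after Pros depletion and 70.0 in progenitor cells, with no peak after Ttk depletion. In rank, Pros-depleted EEs and ECs were the high libraries and EEs the lowest, 21.6 points under Pros-depleted EEs. In fold enrichment, ECs (4.77) and EEs (4.64) were close, under Pros-depleted EEs (6.35) and progenitor cells (6.93). The summit shifted along the shared interval. It lay 5 bp from the AP-2alpha start site in progenitor cells and 54 bp from it in ECs, but 7 bp upstream of the ebi start site in Pros-depleted EEs and 367 bp downstream of it, in a coding exon, in EEs. Peaks of 791 to 1181 bp cannot assign the accessibility to either gene.

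The remaining ebi regions were nearest to other genes. Region ebi 3, at the start of the ribosomal protein gene RpLP1, was the 1 region of the 3 partner genes with a peak in all 5 libraries, at percentile 35.4 in ECs, 13.3 after Ttk depletion, 57.0 in EEs, 39.7 after Pros depletion and 55.1 in progenitor cells. Region ebi 4, at the start of CG11885, ranked at 56.4 in EEs, 65.5 after Pros depletion and 73.5 in progenitor cells and had no EC peak. Region ebi 1, within AP-2alpha, ranked at 49.6 in progenitor cells and 17.2 in ECs. Of the 14 peaks at ebi, 12 had their nearest start site in another gene, against 7 of 37 at ttk, 2 of 6 at phyl and 2 of 6 at sina. The same share over the windows of all genes was not counted, so these counts describe the 4 genes only.

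**Figure D3:**
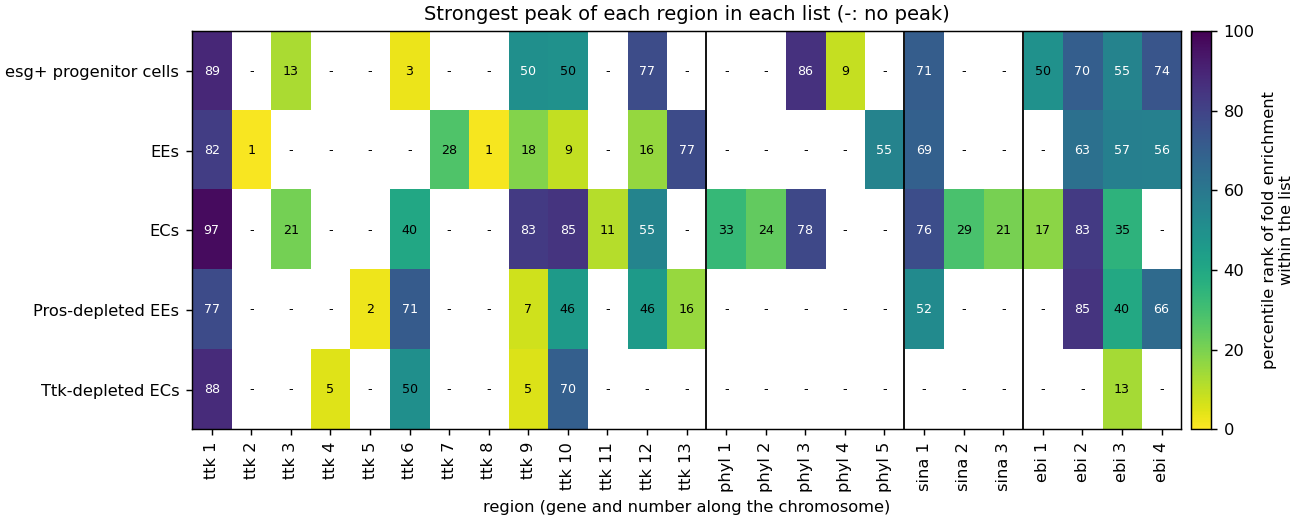
Percentile rank of the strongest peak of each of the 25 regions (x axis, gene and number along the chromosome) in each of the 5 lists (y axis). A dash is a region without a peak in that list; ttk 1, ttk 9, ttk 10 and ebi 3 have a value in all 5.

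Sharing over the 25 regions can be read from these values. A peak was present in all 5 libraries at 4 of the 25, or at ttk 1, ttk 9, ttk 10 and ebi 3, against 12.9% of all 15196 regions. A peak was present in all 3 normal cell types at 7 regions, in 2 of them at 5, in 1 at 11 and in none at 2. Over the 14325 regions of the genome with a peak in a normal cell type, 36.3% had one in all 3 and 43.4% in 1 alone. With equal numbers of peaks from each list, 2 regions had a peak in all 3. The share over all regions was not counted under this setting. The genes differed in this. At phyl, none of the 5 regions was shared by the 3 normal cell types and 4 were found in 1 alone, while at ebi 2 of 4 regions were shared by all 3 and none was found in 1 alone.

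Ttk-depleted ECs had a peak at 6 of the 25 regions, against 18.7% of all regions. With a −log10 q of at least 5 it had 2, and with at least 10 it had 0. The share over all regions was not counted at these thresholds. Of the 16 EC peaks at the 4 genes, 5 overlapped a peak of Ttk-depleted ECs, against 23.0% of all 10048 EC peaks. The 5 were at ttk 1, ttk 6, ttk 9, ttk 10 and ebi 3, so 4 of 7 peaks were found at ttk, 1 of 3 at ebi, and 0 of 3 each at phyl and sina. When the EC list was split into 10 classes by rank, the strongest class had 80.7% (95% Wilson interval 78.1 to 83.0) found and the weakest 1.59% (0.997 to 2.54). The interval covers counting error only. The peak at ttk 1 was in the strongest class, and those at ttk 9 and ttk 10 in the class where 56.9% (53.8 to 59.9) were found. The EC peak of ttk 6 was in a class where 8.06% (6.53 to 9.93) were found, and that of ebi 3 in a class where 3.93% (2.90 to 5.31) were found. The EC peaks of high fold rank without a counterpart were ebi 2, sina 1 and phyl 3. That of ebi 2 was in the same class as ttk 9, and those of sina 1 and phyl 3 in a class where 35.7% (32.8 to 38.7) were found. Loss of a peak after Ttk depletion and the lower depth of that library cannot be told apart at these sites. Peaks of a class were alike in fold rank alone. By −log10 p the EC peaks ranked at 95.7 at ttk 9, 84.8 at ebi 2, 69.2 at sina 1 and 70.5 at phyl 3. Those of ttk 6 and ebi 3 ranked at 58.7 and 46.3. Shares by class of −log10 p were not counted.

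**Figure D4:**
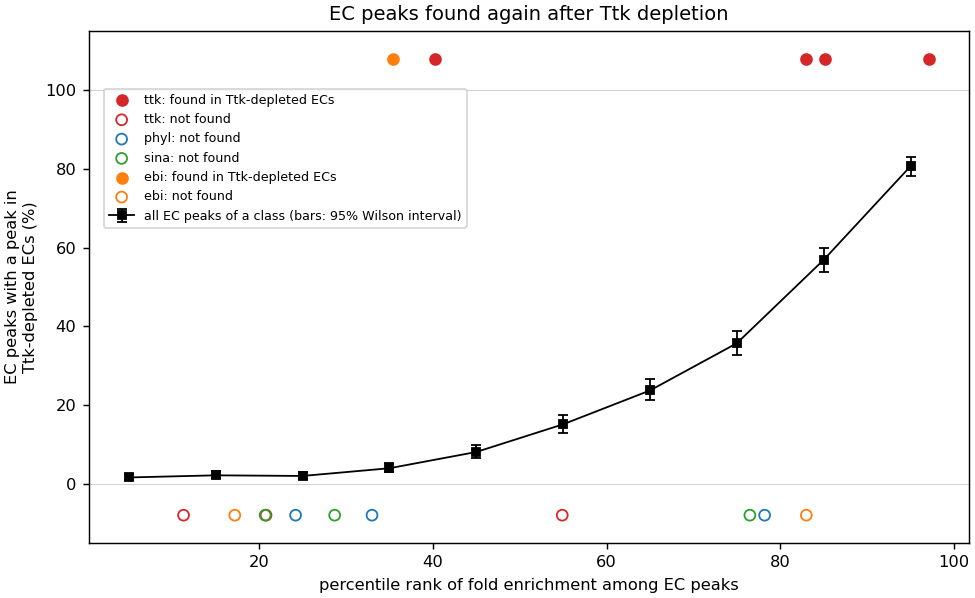
Share of EC peaks that overlapped a peak of Ttk-depleted ECs (y axis, percent) against the percentile rank of fold enrichment in ECs (x axis), in 10 classes of rank with 95% Wilson intervals. Filled circles above the axis range mark the 5 EC peaks of the 4 genes that were found and open circles below it the 11 that were not; the found ttk 6 and ebi 3 peaks lie at ranks where few EC peaks were found.

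Most EE peaks of the 4 genes had a counterpart after Pros depletion. Of the 15 EE peaks, 11 overlapped a peak of Pros-depleted EEs, against 76.2% of all 9048 EE peaks, so the share was close to that of the genome. By gene, 7 of 10 were found at ttk, 1 of 1 at sina, 3 of 3 at ebi and 0 of 1 at phyl. Against Ttk-depleted ECs, 5 of the 15 EE peaks and 5 of the 13 progenitor peaks had a counterpart, where 24.2% of all EE peaks and 26.0% of all progenitor peaks did. Among the EE peaks found were those of ttk 9 and ttk 10, which were among the weaker of the EE list.

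A list of 21 other genes of the pathway was examined with the same windows. At least 1 peak was present at 19 of the 21 in ECs, 15 after Ttk depletion, 16 in EEs, 17 after Pros depletion and 17 in progenitor cells. A peak over a start site was present at 15, 6, 12, 13 and 16 of them in the same order, beside the shares of all protein-coding genes given above. Differences in gene length and in the number of start sites were not accounted for in these counts. Of the 3 genes for turnover or translation of Ttk, eff, the ubiquitin-conjugating enzyme, had a start-site peak in all 5 libraries, at percentile 81.9 in ECs, 76.5 after Ttk depletion, 67.4 in both EEs and Pros-depleted EEs, and 64.9 in progenitor cells. Musashi (msi), an RNA-binding protein that represses ttk translation in sensory organs, had one at 92.3, 31.8, 94.1, 93.8 and 77.0 in the order ECs, Ttk-depleted ECs, EEs, Pros-depleted EEs, progenitor cells. The sina-related gene sinah had none over its start site.

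Among the 8 genes repressed by Ttk or acting next to it, the proneural genes differed from each other. Scute (sc), which drives EE specification, had a peak over its start site at percentile 88.2 in ECs, 82.9 after Ttk depletion, 35.5 after Pros depletion and 86.1 in progenitor cells, and no peak in EEs. Its relatives achaete (ac) and l(1)sc had no peak within 5 kb in any library, and asense (ase) had 1 in ECs and 1 in Ttk-depleted ECs. The prospero gene (pros) had a start-site peak at 87.2 in ECs, 57.2 in EEs, 51.3 after Pros depletion and 81.6 in progenitor cells, and none after Ttk depletion. Of the 4 protein partners, the corepressor CtBP ranked at 99.8 in ECs, 95.4 after Ttk depletion, 80.4 in EEs, 91.0 after Pros depletion and 95.3 in progenitor cells over its start site. Mi-2, the NuRD ATPase that binds Ttk69, ranked at 31.6 in progenitor cells and 57.0 in ECs and had no start-site peak in EEs or either depleted population. Within its window it had 7 peaks in EEs, 6 after Pros depletion and 4 after Ttk depletion. MEP-1, of the same complex, had start-site ranks of 90.7 in ECs, 72.2 in EEs, 77.1 after Pros depletion and 71.4 in progenitor cells, with no such peak after Ttk depletion. Of the 6 signaling genes, Notch (N) ranked at 88.8 in ECs, 26.1 in EEs, 49.1 after Pros depletion and 74.9 in progenitor cells. Its ligand Delta (Dl) ranked at 57.2 in progenitor cells and 60.5 in Pros-depleted EEs, with no start-site peak in EEs or ECs. Neither had a start-site peak in Ttk-depleted ECs. Only 4.80% of all protein-coding genes had a start-site peak in that library, so such an absence was common.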

How the data were processed

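The authors removed adapters with Cutadapt, mapped reads to BDGP6 with bowtie2 (2.2.4 in the submitters' processing notes, another version in the methods), removed duplicates, multimapped reads and blacklisted regions with Picard, SAMtools and bedtools, and called peaks per sample with MACS3, whose settings are not given in the sources used here. Each deposited list gives intervals and summits, the fold enrichment over the local background as a ratio, and the −log10 p and −log10 q by the authors' MACS3. The deposited score repeats the q-value and was not used. The number of reads is unknown.

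Peaks on 6 chromosome arms were kept, which left out 25 to 108 peaks per list. Genes came from Ensembl release 115 and sequences from RefSeq. Fragments at summits were solved from fold and p with a pseudocount of 1, for 100% of peaks. A background was counted over all 13945 protein-coding genes or all merged regions, with 95% Wilson intervals where given. No test was made, since each population had 1 library. Versions were matplotlib 3.10.9, SciPy 1.17.1, pandas 2.3.3, numpy 2.4.6 and Python 3.11.15. Overlaps, merging and inversion were tested on simulated data.

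The 4 genes, the 21 pathway genes, the 11 markers and the motifs were chosen with earlier results of these data known. Named are these genes, any gene with a start site or body at a summit in the 4 windows, and per gene the 2 genes with the most similar start-site ranks. The regions set against genome-wide rank gaps were chosen after their values were seen. Alternatives were stricter q, equal numbers of peaks, other windows, merging within 250 bp, overlap of 50%, ranks of −log10 p, and ranks over all summits.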

Additional observations from a re-analysis of the deposited data

How the results depend on the processing

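No paired analysis was possible because each population had 1 library, and no library could be left out of a group. The number of regions at the 4 genes, 25, fell to 16 with a −log10 q of at least 5, 15 with at least 10, 12 with equal numbers of peaks, 16 with gene bodies alone and 13 within 3 kb of start sites. Regions in all 3 normal cell types, 7, fell to 3 with a −log10 q of at least 10 and 2 with equal numbers. Regions in Ttk-depleted ECs, 6, fell to 2 with a −log10 q of at least 5, 0 with at least 10 and 3 within 3 kb of start sites. With equal numbers of peaks they stayed at 6. Of the 20 counts per gene and library, 15 stayed within 1.5 times with a −log10 q of at least 5, 11 with at least 10 and 8 with equal numbers. These tallies include counts that were fixed in advance. A count of 0 could not fall, and the equal number, 3269, was the whole list of Ttk-depleted ECs, whose counts therefore could not change. Ranks of −log10 p in place of fold differed by −17.2 points (phyl, progenitor cells) to 17.4 points (ttk, Pros-depleted EEs) for the strongest peak of each gene, while progenitor cells rose from 49.5 to 88.0 at ttk 10 and from 50.1 to 89.5 at ttk 9. Depth limits every absence in Ttk-depleted ECs.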

Other observations

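The genes whose start-site ranks over the 5 libraries were closest to those of each member were found as a description, by Euclidean distance over 5 values. For ttk these were yuri, at a distance of 6.63 points, and CG6424, at 8.23. For sina they were Imp, at 3.21, and drl, at 5.30. For ebi the closest was AP-2alpha, at 0.0 because both genes lie under the same peak, and MRP followed at 6.62. No such gene can be given for phyl, which had no peak over its start site.

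With 3 kb in place of 5 kb to each side, the ttk counts fell by 1 peak both in EEs and after Pros depletion, and the ebi counts were the same. With the gene body alone, the ebi counts fell to 1 in each library other than Ttk-depleted ECs, where 0 was left, and ttk had 5 peaks after Pros depletion. The outermost peak inside the ttk window was 3901 bp from the gene and the nearest peak outside it 6430 bp away, and at ebi these distances were 2533 and 10586 bp. At phyl they were 3108 and 5028 bp, so 1 EE peak at percentile 45.7 lay just outside the window. At sina they were 4953 and 6455 bp, so the EC peak sina 3, at percentile 20.7, lay just inside it.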
